A study of Mus musculus with 2 samples.

Results

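Desmosomes and adherens junctions are the adhesive contacts that hold epithelial cells together, and the 10 genes described here encode their core parts. They are the plaque genes Dsp, Jup, Pkp1, Pkp2 and Pkp3, the desmosomal cadherin genes Dsc2 and Dsg2, the desmosome-associated membrane protein gene Perp, and the classical cadherin genes Cdh1 and Cdh3. They were chosen by name, with earlier results of these data known. All 22 probe sets that the array's annotation assigns to them were taken, out of 22690 on the array. In all, the array could be read for 12393 genes through probe sets that name 1 gene each.

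RNA came from mouse uterus on day 8 of pregnancy, from the tissue between implantation sites, where no embryo is attached. One group was labelled Cbs null, from females homozygous for Cbs deficiency, and the other was labelled control. Cbs encodes cystathionine beta-synthase, the enzyme that condenses homocysteine with serine. The females of both groups were aged 4 months, on a C57Bl/6J X OLA129 background. The RNA of each group was hybridised to 1 Affymetrix array, 2 arrays altogether. The Cbs allele, the genotype behind the word control, and whether a sample held RNA of 1 animal or a pool are not given in the labels. Having 1 array per group, the design offers neither replicates nor a statistical test, so the differences below describe these samples.

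A desmosome joins the keratin filaments of neighbouring cells. Desmogleins and desmocollins, which are cadherins, bind across the gap between the cells. Inside the cell they bind plakoglobin (Jup) and the plakophilins (Pkp1 to Pkp3), and desmoplakin (Dsp) ties this plaque to the filaments. In adherens junctions the classical cadherins are linked through catenins to actin, and plakoglobin can serve in both kinds of junction. In the rodent uterus the lining epithelium is known to lose desmosomes around the time of implantation.

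The deposited signals had nearly the same overall level, with a median of 75.6 in the Cbs null sample and 74.55 in the control sample. Weak signals on such arrays cannot be ordered, so any signal under 43.2, the 40th percentile over the pooled arrays, was set to that value, called the floor. Genes whose brightest probe set exceeded the floor on either array are called measured, and there were 8407 of them. The ratio of 3′ to 5′ signal, a measure of RNA integrity, was 1.25 in the Cbs null sample and 1.31 in the control sample for Gapdh. For Actb it was 2.05 in the Cbs null sample and 1.95 in the control sample. Cbs, read by its brighter probe set, gave 42.6 in the Cbs null sample, under the floor, and 79.8 in the control sample, at least 1.85-fold lower, and its other probe set was under the floor on both arrays. Measurement error was judged from the pairs of brightest probe sets of 2757 genes. The technical SD of a log2 ratio came to 0.22, to 0.15 where both probe sets were at least 4 times the floor and to 0.29 where both were dimmer. That error does not cover variation between mice.

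The junction genes did not differ in one direction. Relative to control, desmoplakin, Perp, plakophilin 1, desmocollin 2 and E-cadherin signals were higher in the Cbs null sample, whereas plakoglobin and P-cadherin signals were lower and plakophilin 2, plakophilin 3 and desmoglein 2 lay closer to even. All 10 genes were measured, 9 of them above the floor on both arrays. Pkp1 was measured through the Cbs null array alone, so its direction was fixed by passing the floor. By their brightest probe sets, 5 of the 10 were higher and 5 lower, Dsg2 among the lower, and with probe sets averaged 6 were higher. The shares were 53.3% higher and 46.5% lower among all measured genes. At least 2-fold higher was 1 of the 10, Pkp1, where the share over all measured genes was 0.797%, and none of the 10 was at least 2-fold lower, where that share was 0.714%. At the wider limit of 1.5-fold, 4 genes were higher (Dsp, Perp, Pkp1 and Dsc2) and 2 were lower (Jup and Cdh3). The shares of all measured genes were 3.59% and 3.38%. Because the 10 genes were chosen with earlier results of these data known, setting them beside these shares is not a test. The log2 ratios, which are of Cbs null over control throughout, had a median of 0.24 for the 10 genes and 0.02 for all measured genes, and the single ratios ran from -0.68 to 1.15.

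**Figure D1:**
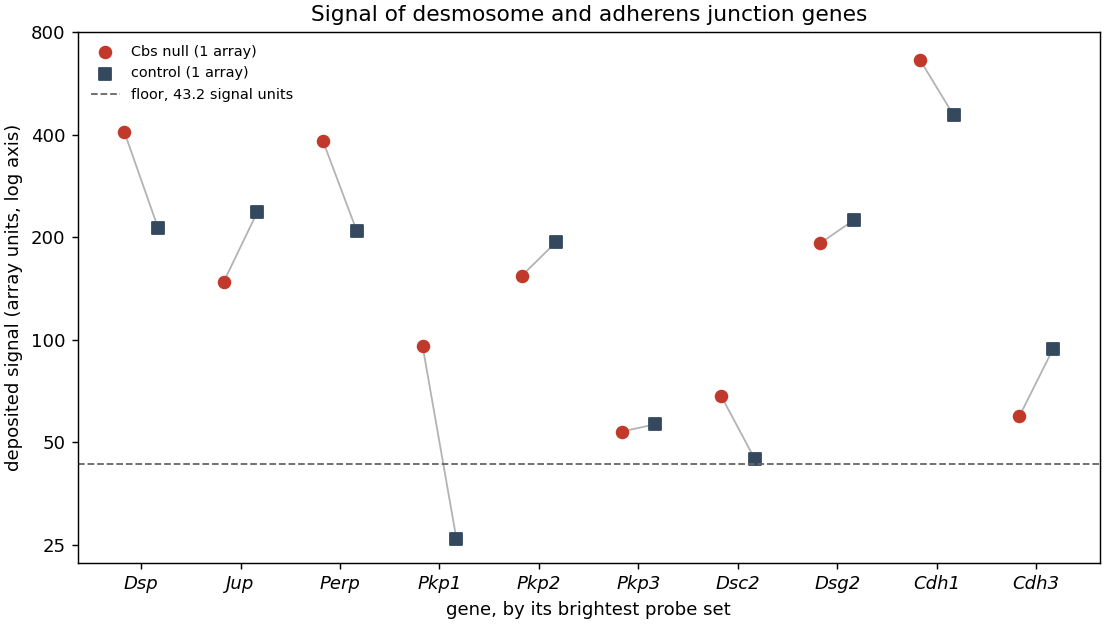
Deposited signal of each of the 10 genes, by its brightest probe set, on the Cbs null array (circles, left) and the control array (squares, right), on a log axis in array units. The dashed line is the floor of 43.2. Lines slope down to control for Dsp, Perp, Pkp1, Dsc2 and Cdh1 and up to control for Jup, Pkp2, Pkp3, Dsg2 and Cdh3; the control point of Pkp1, at 26.0, lies under the floor.

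Among the plaque genes, desmoplakin and plakoglobin, whose proteins bind each other, differed in opposite directions. Dsp, which anchors keratin filaments to the plaque, read 408.5 in the Cbs null sample and 213.0 in the control sample, 1.92-fold higher, a log2 ratio of 0.94. A second probe set read 376.8 in the Cbs null sample and 198.6 in the control sample, 1.90-fold higher, but the annotation lists the same source sequence for both, so it is not an independent check. The third Dsp probe set was under the floor on both arrays, and with all 3 averaged the log2 ratio was 0.62. Of all measured genes, 0.892% had a higher ratio than Dsp.

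Jup, the catenin shared by desmosomes and adherens junctions, read 147.8 in the Cbs null sample and 237.6 in the control sample, 1.61-fold lower, a log2 ratio of -0.68. It rested on 1 probe set, and 2.24% of measured genes had a lower ratio. By their brightest probe sets, the log2 ratios of Dsp and Jup were 1.62 apart. The technical SD of 0.22 is for a single ratio, not for such a difference, and does not cover variation between mice.

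Promoter sequence was at hand for 2 of the 10 genes in a RefSeq table of build GRCm38.p6, Dsp and Jup, the plaque partners whose signals differed in opposite directions. The 200 bases directly before each gene's outermost annotated start are shown, 5′ to 3′ on the gene's own strand. They lie at chr13:38151094-38151293 on the plus strand for Dsp and at chr11:100397840-100398039 on the minus strand for Jup. Capitals mark the GC box GGGCGG and the CCAAT box, each in either orientation.
Dsp: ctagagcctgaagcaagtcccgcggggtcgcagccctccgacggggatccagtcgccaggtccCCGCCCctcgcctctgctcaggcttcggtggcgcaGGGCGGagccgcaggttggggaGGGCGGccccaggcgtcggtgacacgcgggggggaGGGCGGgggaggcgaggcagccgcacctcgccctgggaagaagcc
Jup: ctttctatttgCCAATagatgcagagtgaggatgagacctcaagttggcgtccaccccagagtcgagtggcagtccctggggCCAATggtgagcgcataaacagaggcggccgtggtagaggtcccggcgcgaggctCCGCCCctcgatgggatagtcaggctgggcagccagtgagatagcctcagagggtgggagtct

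The Dsp stretch held 4 GC boxes and no CCAAT box and was 75.5% G and C. The Jup stretch held 1 GC box and 2 CCAAT boxes and was 60.5% G and C. Of 32851 stretches of the same length before the starts in that table, 31.0% held a GC box and 29.3% a CCAAT box, and their median G and C content was 53.0%. No marked motif overlapped another. Neither stretch held the TATAAA box (9.96% of all stretches), the E-box CAGGTG to which SNAI and ZEB repressors bind (13.9%) or the grainyhead motif AACCNGTT (1.45%), searched on both strands. A match describes these letters and is not evidence of a bound factor.

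Of the plakophilins, armadillo-repeat proteins that bind desmoplakin and cluster the desmosomal cadherins, Pkp1 read higher, Pkp2 lower and Pkp3 nearly even. The direction of Pkp1 was fixed by passing the floor in the Cbs null sample only. Pkp1, the plakophilin known from stratified epithelium, read 95.8 in the Cbs null sample and 26.0, below the floor, in the control sample, at least 2.22-fold higher. Pkp1 had 1 probe set only, so no second measurement was at hand. Pkp2, the plakophilin of simple epithelia and heart, read 154.3 in the Cbs null sample and 193.2 in the control sample, a log2 ratio of -0.32. A second Pkp2 probe set read 81.1 in the Cbs null sample and 109.5 in the control sample, a log2 ratio of -0.43, and its remaining 2 were under the floor on both arrays. The 2 Pkp2 probe sets above the floor thus pointed the same way, each by less than 1.5-fold. The brighter of those under the floor read 41.2 in the Cbs null sample and 21.9 in the control sample, where signals cannot be ordered. Pkp3, a plakophilin found widely in epithelia, read 53.7 in the Cbs null sample and 56.4 in the control sample, 1.05-fold apart, less than the technical SD. Both Pkp3 values were close to the floor and its other probe set was under it.

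Perp encodes a tetraspan membrane protein that is a target of p53 and p63 and is needed for desmosome assembly in mouse skin. It read 382.1 in the Cbs null sample and 207.9 in the control sample, 1.84-fold higher, a log2 ratio of 0.88. That placed it close to Dsp, with 1.27% of measured genes above it. It also rested on 1 probe set.

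The desmosomal cadherins were measured less firmly. Dsc2, the most widely expressed desmocollin, read 68.5 in the Cbs null sample and 44.6 in the control sample, 1.54-fold higher. The control value was barely above the floor, in the range of signal with the larger technical SD, and a second Dsc2 probe set was below the floor in both samples. Its log2 ratio of 0.62 became 0.31 when its probe sets were averaged, and 0.35 with a pseudocount in place of the floor.

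Dsg2, its desmoglein counterpart, had 6 probe sets that disagreed. The brightest read 192.2 in the Cbs null sample and 225.0 in the control sample, a log2 ratio of -0.23. The second read 134.9 in the Cbs null sample and 100.4 in the control sample, a log2 ratio of 0.43. Another read 58.2 in the Cbs null sample and 42.5, slightly under the floor, in the control sample, and the other 3 were below it in both samples. The first pair differed by 0.65 on the log2 scale, and only 3.84% of the 2757 genes with such a pair had probe sets at least as far apart. Averaged over probe sets, the Dsg2 ratio was 0.10, so no direction can be given for this gene. In the RefSeq gene table Dsc2 lies between Dsc3 and Dsc1, the desmocollin genes of stratified epithelium. Neither of these reached the floor on either array.

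**Figure D2:**
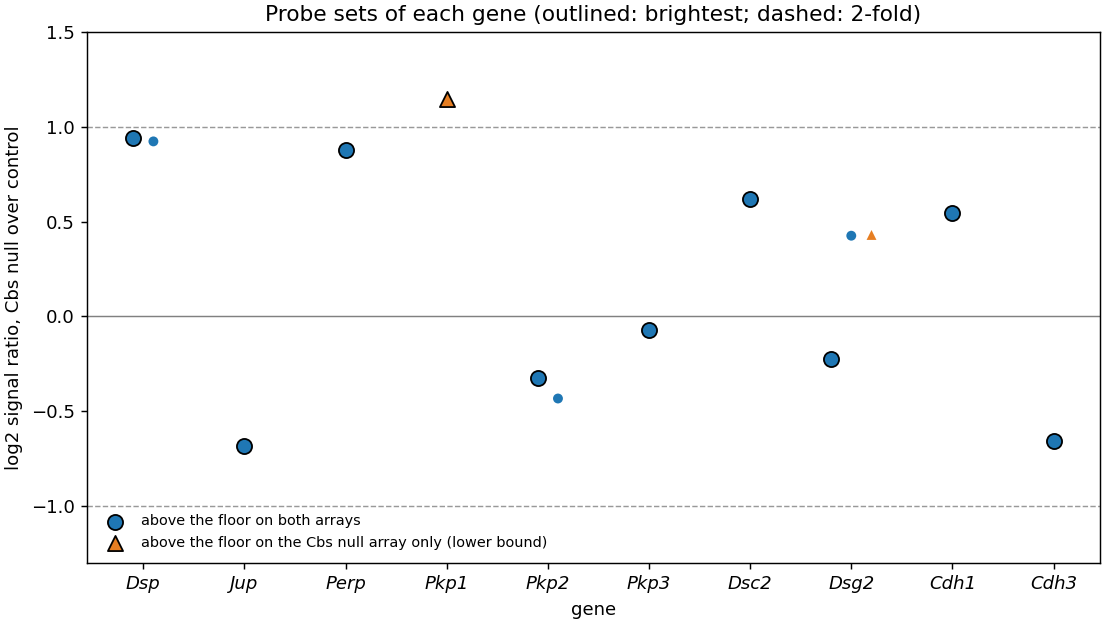
Log2 signal ratio of Cbs null over control for every probe set of the 10 genes that exceeded the floor on either array (14 of 22). Large outlined points are the brightest probe set of a gene, triangles are lower bounds because the control signal was below the floor, and dashed lines mark 2-fold. The probe sets of Dsp lie together and so do those of Pkp2, whereas those of Dsg2 lie on both sides of 0.

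The classical cadherins also went opposite ways. Cdh1, or E-cadherin, the main adhesion molecule of adherens junctions in epithelium, read 664.5 in the Cbs null sample and 455.9 in the control sample. This was 1.46-fold higher, a log2 ratio of 0.54, and 4.35% of measured genes had a higher ratio. Cdh3, or P-cadherin, found in placenta and in basal epithelial cells, read 59.5 in the Cbs null sample and 94.0 in the control sample, 1.58-fold lower, a log2 ratio of -0.66. Both values of Cdh3 were less than 4 times the floor, and with a pseudocount in place of the floor its ratio was -0.42. Each of these cadherins had 1 probe set. Cdh1 and Cdh3 are direct neighbours among the protein-coding genes of the RefSeq table, and their log2 ratios were 1.20 apart.

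**Figure D3:**
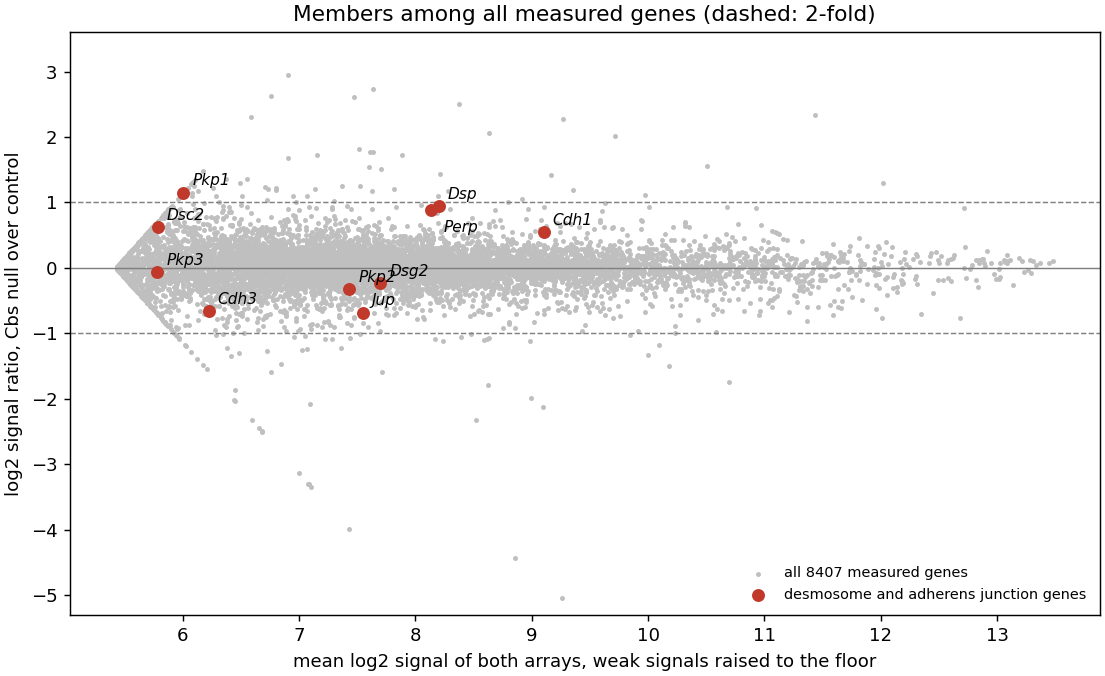
Log2 signal ratio of Cbs null over control against mean log2 signal of both arrays for all 8407 measured genes (grey) and the 10 junction genes (red, labelled), with dashed lines at 2-fold. Dsp, Perp and Pkp1 lie at the upper edge of the cloud and Jup and Cdh3 at its lower edge; the slanted edges on the left are made by the floor.

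The partners of these genes were read from lists of other junction, filament and regulator genes. Of the other desmosome genes, 7 of 12 listed had a probe set of their own and 3 were measured. These were the plakophilin relative Pkp4 at a log2 ratio of 0.20, and the plaque linker genes Evpl and Ppl at 0.23 and 0.09. None of the 3 was 2-fold apart, and their median was 0.20, beside 0.02 for all measured genes.

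The catenin and nectin partners of the classical cadherins lay on both sides of even. Of 13 on the array 9 were measured, 5 higher and 4 lower, none 2-fold apart, with a median log2 ratio of 0.02. Beta-catenin (Ctnnb1) read 4152.8 in the Cbs null sample and 4082.6 in the control sample, and alpha-catenin (Ctnna1) read 1913.5 in the Cbs null sample and 1808.8 in the control sample. Vinculin (Vcl), which joins catenins to actin, stood at -0.41 and the scaffold gene Tjp1 at 0.06. Named with their values known, the nectin gene Nectin2 stood at -0.33 and the actin-binding protein gene Lima1 at -0.44. Also named in this way, p120-catenin (Ctnnd1), which keeps cadherins at the cell surface, read 128.9 in the Cbs null sample and 72.1 in the control sample, 1.79-fold higher in its single probe set.

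Other cadherins numbered 6 measured of 14 on the array, 2 higher and 4 lower, none 2-fold apart, with a median of -0.19. Among the lower, Cdh4 passed the floor on the control array only, which fixed its direction. The stromal cadherin Cdh11 read 1742.9 in the Cbs null sample and 2637.0 in the control sample, 1.51-fold lower. The endothelial cadherin Cdh5 stood at 0.10, N-cadherin (Cdh2) at -0.05 and Cdh13 at 0.29.

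Genes for repressors of E-cadherin were all measured, 8 of 8, with 3 higher, 5 lower and a median of -0.03. Tcf4 stood at 0.06, Zeb1 at -0.29, Zeb2 at -0.10 and Twist2 at 0.24. Snai2, which encodes SLUG and was named with its value known, read 139.6 in the Cbs null sample and 251.6 in the control sample, 1.80-fold lower in its single probe set. No repressor gene was 2-fold apart.

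Regulators of epithelial transcription and splicing were higher in 7 of 8 measured genes of 12 on the array, none by 2-fold, with a median of 0.31. The epithelial splicing factor gene Esrp1 stood at 0.50 and the ETS factor gene Ehf at 0.34, while Klf4 was even at 0.00. Klf5, a Krüppel-like factor of proliferating epithelium, was lower, at -0.64, and at -0.23 in its other probe set. Trp63, which encodes the p63 protein that activates Perp in skin, was below the floor in both samples, at 40.4 in the Cbs null sample and 22.3 in the control sample.

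Of the 7 partner lists, the intermediate filament genes spanned the widest range of ratios. Of 10 measured, 9 were higher, 4 of them at least 2-fold, and the median was 0.80. The genes at least 2-fold higher were keratins of stratified or basal epithelium. Krt5 read 428.8 in the Cbs null sample and 130.3 in the control sample, 3.29-fold higher. Krt13 read 214.4 in the Cbs null sample and 67.2 in the control sample, 3.19-fold higher, and its other probe set was under the floor on both arrays. Krt14, close to the floor in control, read 105.6 in the Cbs null sample and 46.6 in the control sample, 2.27-fold higher. Another Krt14 probe set read 107.2 in the Cbs null sample and 32.8, under the floor, in the control sample. The last Krt14 probe set was under the floor on both arrays. Krt15 was at least 4.94-fold higher, and its direction was fixed by passing the floor in the Cbs null sample only. Also named with their values known, the keratins of simple epithelium Krt7, Krt8, Krt18 and Krt19 stood at 0.06, 0.63, 0.70 and 0.90, and desmin (Des), the filament of muscle, was the 1 gene lower, by 1.60-fold.

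Of the proteases known to cut cadherins, 12 of 13 on the array were measured, 5 higher and 7 lower, with a median of -0.12. Among the lower, Mmp9 passed the floor on the control array only, so its direction was fixed. The matrilysin gene Mmp7, whose product can release the E-cadherin ectodomain, read 269.0 in the Cbs null sample and 572.0 in the control sample, 2.13-fold lower. Adam10, the main E-cadherin sheddase, named here with its value known, stood at 0.05.

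**Figure D4:**
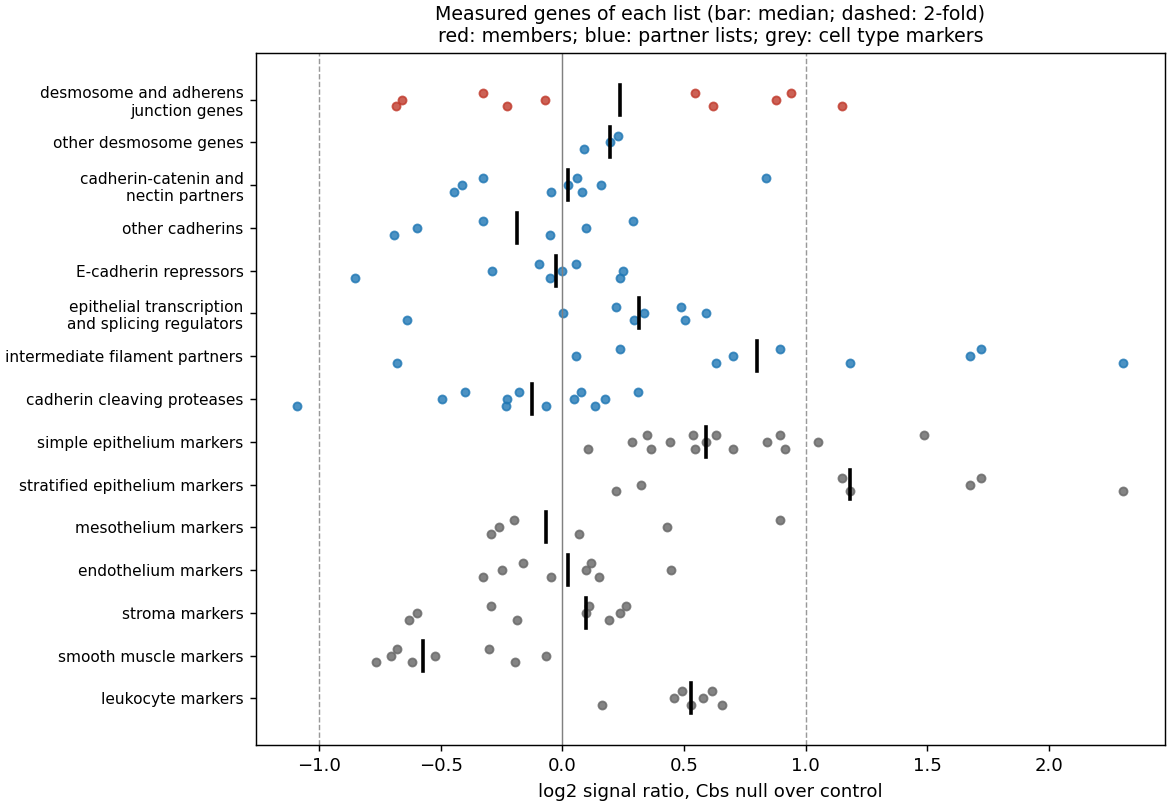
Log2 signal ratio of Cbs null over control for each measured gene of the 10 junction genes (red), the partner lists (blue) and the cell type marker lists (grey), with a bar at each list's median and dashed lines at 2-fold. The junction genes are spread on both sides of 0, whereas all simple epithelium markers lie above 0 and all smooth muscle markers below it.

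Markers of the cell types in the tissue differed too. In a bulk sample, more cells of a type and more RNA per cell cannot be told apart. All 15 simple epithelium markers on the array were measured and all were higher in the Cbs null sample, with a summed signal of 10665.7 in the Cbs null sample and 6796.2 in the control sample. Of these, Cldn4 and Muc1 exceeded the floor on the Cbs null array only, so their direction was fixed and their ratios are lower bounds. Leaving out Cdh1, which is itself on that list, the other 14 ran from 0.10 to 1.49, the bound of Muc1, with a median of 0.61. The ratios of Dsp, Perp, Dsc2 and Cdh1 lay inside that range, and Pkp1 had a lower bound of 1.15. By their brightest probe sets, the other 5 junction genes, Jup, Cdh3, Pkp2, Dsg2 and Pkp3, lay below all 14 of these markers. The second Dsg2 probe set, at 0.43, lay inside the range of the markers. The part of epithelial content in the junction gene values was not tested.

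Markers of stratified epithelium had a summed signal of 1337.3 in the Cbs null sample and 513.0 in the control sample. These sums include Pkp1 and the markers under the floor. Of 15 on the array 7 were measured, all higher, though 3 of these, Pkp1 among them, passed the floor on the Cbs null array alone. Above the floor on both arrays were Krt5, Krt13, Krt14 and Krt10, at log2 ratios of 1.72, 1.67, 1.18 and 0.32. The remaining 8, Trp63, Dsc3, Krt1, Krt4, Krt6a, Krt16, Krt17 and Sprr3, did not reach the floor on either array. The part of stratified epithelium in the Pkp1, Perp and Dsp values was not tested.

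Leukocyte markers were higher in 7 of 7 measured genes. Over all 8 on the array, summed signals were 6050.4 in the Cbs null sample and 4329.0 in the control sample. Smooth muscle markers were lower in 8 of 8, with summed signals of 27032.1 in the Cbs null sample and 34212.5 in the control sample, and their part in the lower junction genes was not tested. Endothelium markers split 4 higher and 4 lower with a median of 0.03, and stroma markers 5 and 4 with a median of 0.10. Mesothelium markers split 3 and 3 with a median of -0.07. Among the higher of these, Bnc1 passed the floor on the Cbs null array only, which fixed its direction. The 5 trophoblast markers on the array were all under the floor in both samples.

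**Figure D5:**
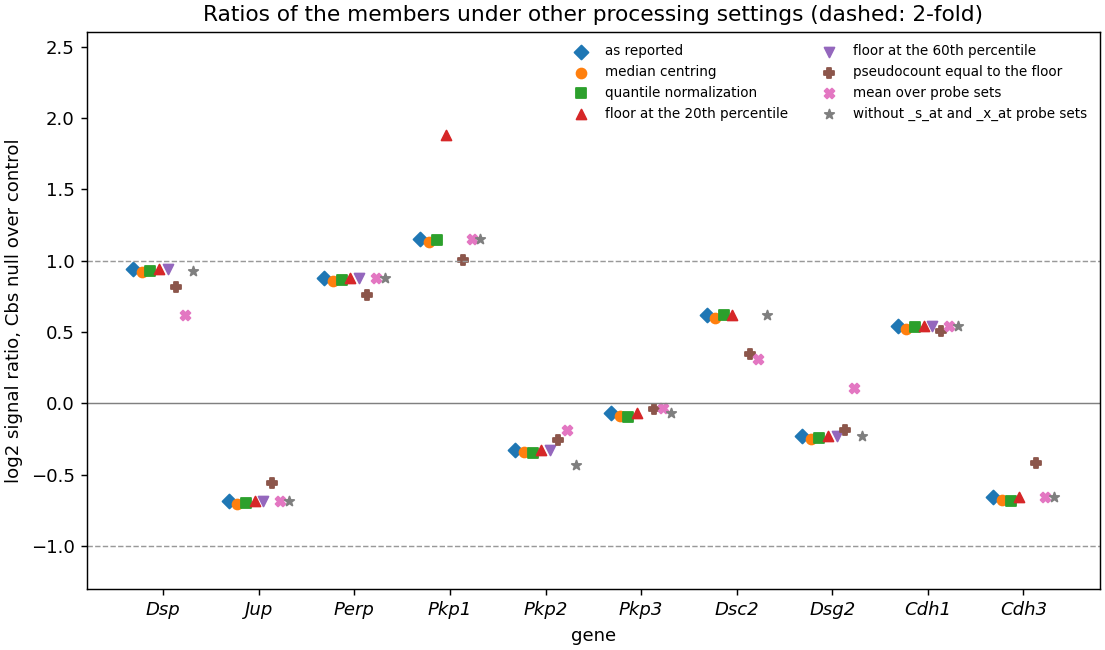
Log2 signal ratio of Cbs null over control for each of the 10 genes as reported and under 7 other processing settings, with dashed lines at 2-fold; a gene below the floor under a setting has no point. Jup, Perp and Cdh1 keep nearly the same ratio, Pkp1 moves to 1.88 with the floor at the 20th percentile, and Dsg2 crosses 0 when probe sets are averaged. Jup, Perp and Cdh1 have 1 probe set each, above every floor tried on both arrays. Changing the floor or the choice of probe sets could therefore not move them.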

How the data were processed

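Total RNA was labelled with biotin as cRNA, from 2 microg per sample, per the labels' protocols. The values deposited by the authors are linear intensities, 1 for each probe set on each array, made with GCOS version 1.4, per the submitters' processing notes. How probes were summarised and scaled is not given in the sources used here, nor are detection calls. Means trimmed by 2% were 200.07 for Cbs null and 200.08 for control, so values were used as deposited, and differences are relative to the rest of the array.

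The probe set of highest mean log2 signal, among those with 1 symbol, stood for its gene, and differences were described by a size rule of 2-fold with no test (Python 3.11.15, pandas 2.3.3). Of 20380 such probe sets, 20351 matched a RefSeq gene table (GRCm38.p6) by gene identifier. The calculation was tested on simulated data. Named partner genes were those 2-fold apart in a list, or else its 4 brightest, and any others were named with their values known. The members and lists were chosen with earlier results of these data known. The number of arrays limits the precision.

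The 9 alternatives tried were floors at the 20th percentile and at the 60th, a pseudocount equal to the floor, median centring, quantile normalization, the mean over probe sets, leaving out _s_at and _x_at probe sets, and size rules of 1.5-fold and 3-fold.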

Additional observations from a re-analysis of the deposited data

How the results depend on the processing

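No paired analysis was possible because each group had 1 array, and no replicate could be left out for the same reason. The count of junction genes at least 2-fold higher, 1 as reported, was 0 when the floor was moved to the 60th percentile, where Pkp1, Pkp3, Dsc2 and Cdh3 were no longer measured, 4 with a limit of 1.5-fold and 0 with a limit of 3-fold. The count at least 2-fold lower, 0 as reported, was 2 with a limit of 1.5-fold. The count of genes with a ratio above 0 was 5 of 10 as reported. It was 3 of the 6 still measured under the 60th percentile floor, and 6 of 10 with probe sets averaged. The median log2 ratio of the 10 genes stayed between 0.15 and 0.24 under the 7 alternatives that change ratios. Of the single genes, Dsg2 turned to 0.10 with probe sets averaged, and the other 9 kept their direction wherever they were measured. For Jup, Perp, Pkp1, Cdh1 and Cdh3, with 1 probe set each, averaging could not change the ratio. Dsp was 0.62 with probe sets averaged. Over all measured genes, the counts of 67 higher and 60 lower were 242 and 213 under the 20th percentile floor, 30 and 31 with it at the 60th, 35 and 33 with the pseudocount, 302 and 284 at 1.5-fold and 16 and 22 at 3-fold. The median log2 ratio of the 7 measured stratified epithelium markers was 1.18, and 1.43 over the 4 that are no members and lay above the floor on both arrays. With either other floor, and with probe sets averaged, the list median was between 0.83 and 0.88. Weak signal limits Pkp1, Pkp3, Dsc2 and Cdh3, and a floor set as a percentile is not a detection limit.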
